A study of Komagataella phaffii with 102 samples.

Results

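Y-7556 and YB-4290 were compared with Y-12729 and Y-48123 after 24 h in glycerol, in 12 RNA-seq libraries of a survey of Komagataella phaffii, the methylotrophic yeast widely called Pichia pastoris. The survey covered 11 nontransgenic strains with 36 libraries at 24 h in glycerol, 28 at 48 h in glycerol and 38 in methanol. Methanol libraries were also taken at 48 h, after 24 h in glycerol and 24 h in methanol. Per the study, cells for both later samplings were moved to fresh medium at 24 h. Each of the 4 strains contributed 3 libraries, lettered A, B and C, and the strains of a group were weighted equally, so that 6 libraries stood against 6. According to the study, each of these strains differs by a single nucleotide from Y-11430, the strain of the reference assembly. Y-7556 and YB-4290 were found to have identical genomes and were given the same alternate collection number, so they can be read as one isolate kept under separate names. Their SNP lies in RSF2 and lengthens the Rsf2 protein. The SNP of Y-12729 lies in SMC3 and that of Y-48123 in SEF1. All strains grew in buffered glycerol medium in multiwell plates at ambient temperature, and carried no transgene. The RSF2 allele and anything else particular to that isolate cannot be told apart here. The study placed Y-7556 and YB-4290 in one expression cluster and the other pair elsewhere on the basis of these same libraries, so a difference between the groups is no independent evidence for the clusters.

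Rsf2 is a zinc finger transcription factor. In Saccharomyces cerevisiae its counterpart takes part in growth on glycerol and in respiration. Glycerol is taken up and oxidised through respiration, it represses the methanol utilisation genes of this yeast, and cultures slow and change their expression as it runs down. Smc3 is a core subunit of cohesin, the ring complex that holds sister chromatids together. Sef1 is a zinc cluster transcription factor, known in Candida albicans for the control of iron uptake genes. Most genes below are given by identifier only, because the sources used here pair few identifiers with names.

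The libraries held 3469638 to 5419705 counts in Y-7556 and YB-4290 and 3755634 to 5307142 in Y-12729 and Y-48123. Transcripts outside the listed genes took 5.36% to 18.8% of all TPM (transcripts per 1000000) in Y-7556 and YB-4290, against 10.7% to 27.2% in Y-12729 and Y-48123. None of the 66 pairs of these 12 libraries agreed within sampling noise. Within Y-7556 and YB-4290 the libraries of the same letter deviated together, with correlations across genes of 0.65 to 0.80, and both A libraries lay nearer to Y-12729 and Y-48123 than the B and C libraries did. Of the 438 genes called below, the A library was the nearest of its strain to the other group for 316 genes in Y-7556 and 326 genes in YB-4290. In the study's own test, Y-7556 and YB-4290 needed more cell wall digesting enzyme than Y-12729 to yield RNA. The enzyme amount behind each library is not stated, so extraction and strain cannot be told apart.

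At 24 h in glycerol, 438 of 5018 tested genes (8.73%) differed between Y-7556 with YB-4290 and Y-12729 with Y-48123, where a call needed a log2 fold change of 1 or more in size and an adjusted p-value below 0.05. Of these, 211 (4.2%) were higher and 227 (4.52%) were lower in Y-7556 and YB-4290. By limma on log2(TPM + 1) the larger number was on the other side, with 233 higher and 175 lower genes. The median log2 fold change was 1.25 among the higher genes, with a maximum of 3.14, and -1.36 among the lower genes, with a minimum of -4.28. Changes of more than 2 log2 units were more often falls, with 37 lower genes and 8 higher genes. Without the fold minimum, 2192 genes (43.7%) passed the adjusted p-value. In CPM, which are counts scaled to a total of 1000000 in each library, the 6 libraries of each group did not overlap for 181 of the higher genes (8.87% of all tested genes were fully above) and for 182 of the lower genes (12.1% were fully below). Together, the higher genes took 2.36% to 3.76% of the listed TPM in Y-7556 and YB-4290, against 0.977% to 1.297% in Y-12729 and Y-48123. The lower genes took 1.51% to 3.16% in Y-7556 and YB-4290, against 5.11% to 7.60% in Y-12729 and Y-48123. Genes just past the fold minimum had values of 1.01 (GQ67_01874) and -1.01 (GQ67_03145), and those just short of it 0.9997 (GQ67_04172) and 0.9985 (GQ67_00273).

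**Figure D1:**
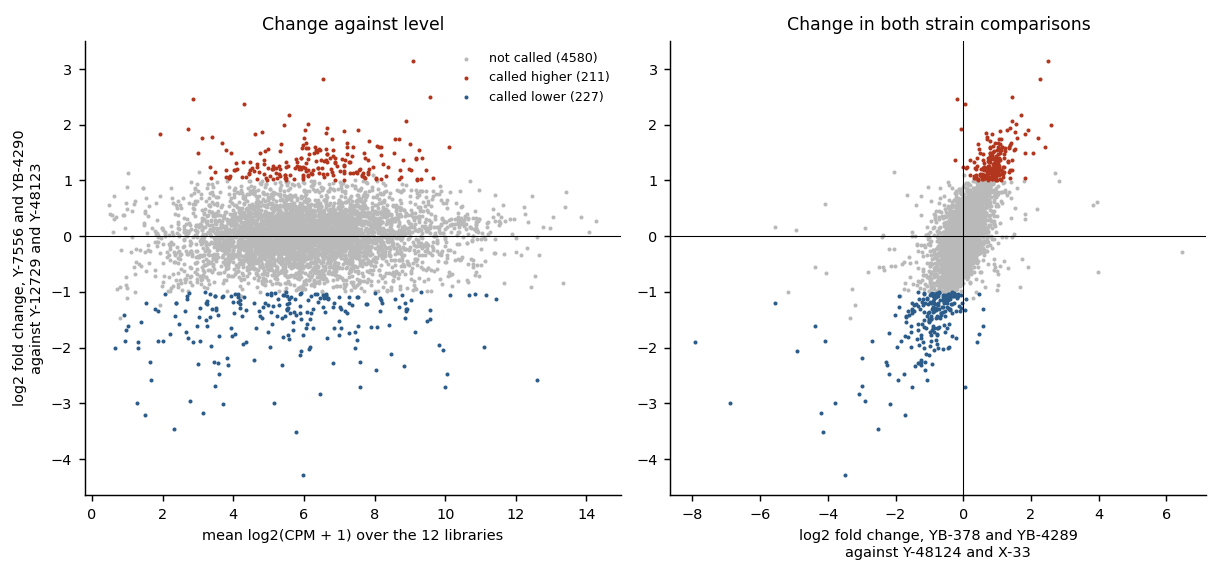
Log2 fold change of each of the 5018 tested genes, Y-7556 and YB-4290 over Y-12729 and Y-48123 at 24 h glycerol (vertical axes), plotted against the mean log2(CPM + 1) over the 12 libraries (left) and against the log2 fold change of YB-378 and YB-4289 over Y-48124 and X-33 (right). Each point is a gene, red where called higher (211), blue where called lower (227) and grey where not called; in the right panel 207 of the red points lie right of 0.

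Differences were tested in each strain pair as well. Y-7556 gave 540 calls (10.8%) against Y-12729 and 354 (7.05%) against Y-48123. YB-4290 gave 554 (11%) against Y-12729 and 365 (7.27%) against Y-48123. A total of 222 genes (4.42%) were called in the same direction in all 4 pairs, 107 of them lower and the rest higher (77 lower and 139 higher by limma on log2(TPM + 1)). These pairs share libraries with each other and with the pooled comparison. Within the groups, far fewer genes were called. YB-4290 against Y-7556 gave 0 calls (0%) by edgeR, with 42 genes at an unadjusted p-value under 0.05, and 0 calls by DESeq2 and by limma. Same-lettered libraries of these strains deviated together (correlations of 0.65 to 0.80), and this test did not pair them. Their shared deviation counted as spread, so the 0 calls may understate differences between these strains. Y-48123 against Y-12729 gave 28 calls (0.558%), 8 higher (0.159%) and 20 lower (0.399%), and limma on log2(TPM + 1) gave 2 higher and 69 lower genes.

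The gene with the largest rise was GQ67_04920 (chromosome 4, 1113914 to 1114900, minus strand). It had 1036, 1073 and 1175 CPM in Y-7556 and 661, 724 and 1147 CPM in YB-4290, against 85.3, 147 and 137 CPM in Y-12729 and 114, 97.1 and 87.3 CPM in Y-48123. Every library of Y-7556 and YB-4290 was thus above every library of the other pair, by a wide margin. Most genes described for their large change or high level were chosen on condition that the groups did not overlap. Their separation is therefore built in. The log2 fold change was 3.14 (SE 0.33, adjusted p = 2.82e-08). Its mean levels were 1112 TPM in Y-7556 and YB-4290 and 120.3 TPM in Y-12729 and Y-48123.

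GQ67_03935 (chromosome 3, 1615497 to 1617749, minus strand), with the next largest rise, had 114, 181 and 178 CPM in Y-7556 and 82.9, 205 and 199 CPM in YB-4290, against 17.4, 22.6 and 32.2 CPM in Y-12729 and 25.6, 16.6 and 19.2 CPM in Y-48123. Its log2 fold change was 2.83 (SE 0.30, adjusted p = 2.82e-08). The A libraries of Y-7556 and YB-4290 held the lowest values of their strains, and lay above the other group, as the choice of genes requires. GQ67_02767, one of the longest gene models of the assembly (chromosome 1, 908116 to 923102, minus strand), had 1194, 1384 and 951 CPM in Y-7556 and 1268, 1910.3 and 1040.0 CPM in YB-4290, against 151, 238 and 342 CPM in Y-12729 and 230.3, 206 and 203 CPM in Y-48123. It rose by 2.49 on the log2 scale (SE 0.17, adjusted p = 7.40e-12). Here the A libraries were not the lowest of YB-4290 or Y-7556.

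Other genes had large rises as well. GQ67_03074 rose by 2.46 and GQ67_04640 by 2.37 on the log2 scale, at low levels (means of 10.5 and 30.5 CPM in Y-7556 and YB-4290). GQ67_05251 (chromosome 4) had 41.4 to 91.0 CPM in Y-7556 and YB-4290 and 13.9 to 20.3 CPM in Y-12729 and Y-48123, a log2 fold change of 2.17. GQ67_04501 (chromosome 4) had 507 to 1020.2 CPM in Y-7556 and YB-4290 and 125 to 252 CPM in Y-12729 and Y-48123, a log2 fold change of 2.06. GQ67_01861, GQ67_03253 and GQ67_00171 rose by 2.01, 1.95 and 1.90 on the log2 scale. Among the abundant higher genes called in all 4 strain pairs, GQ67_01106 (chromosome 2) averaged 819.8 TPM in Y-7556 and YB-4290 and 263 TPM in Y-12729 and Y-48123. GQ67_00837 (chromosome 2) averaged 812 TPM in Y-7556 and YB-4290 and 268 TPM in Y-12729 and Y-48123. Their log2 fold changes were 1.55 and 1.60.

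The deepest fall was that of GQ67_04117 (chromosome 3, 1921844 to 1923856, plus strand). It had 3.14, 4.07 and 5.04 CPM in Y-7556 and 2.56, 3.75 and 7.76 CPM in YB-4290, against 262, 205 and 147 CPM in Y-12729 and 15.6, 60.6 and 30.1 CPM in Y-48123. The groups did not overlap, but Y-12729 and Y-48123 themselves stood far apart, with a log2 fold change of Y-48123 over Y-12729 of -2.41 that was itself called (adjusted p = 0.0495). The fall was 4.28 on the log2 scale (SE 0.57, adjusted p = 7.10e-07). With the libraries of each strain summed, so that strains were the replicates, it was -4.73 and no longer called (adjusted p = 0.105). Y-7556 and YB-4290 count as separate replicates in that fit, although they can be read as the same isolate.

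GQ67_04305, a gene with 2 exons close to the left end of chromosome 4 (6884 to 12818, minus strand), had 12.4, 8.36 and 5.82 CPM in Y-7556 and 6.98, 7.78 and 6.98 CPM in YB-4290, against 71.1, 43.7 and 75.6 CPM in Y-12729 and 128, 140.1 and 134 CPM in Y-48123. It fell by 3.51 on the log2 scale (SE 0.38, adjusted p = 2.92e-08). The A library of Y-7556 was the highest of its group, while that of YB-4290 was not the highest of its strain. ZPS1 (GQ67_03591, chromosome 3), whose namesake in Saccharomyces cerevisiae is a cell surface protein made under zinc limitation, had 11.6, 1.36 and 0.970 CPM in Y-7556 and 25.8, 1.44 and 1.29 CPM in YB-4290, against 98.4, 83.3 and 69.2 CPM in Y-12729 and 27.9, 53.3 and 37.0 CPM in Y-48123. The B and C libraries of Y-7556 and YB-4290 were near the bottom of the measured range, while the A library of YB-4290 came close to the lowest library of Y-48123. Its log2 fold change was -2.99 (SE 0.48, adjusted p = 9.14e-06), -4.50 without the A library of YB-4290 and -5.55 without both A libraries. Among the A libraries alone, with strains as the replicates, it was -1.67 and not called (adjusted p = 0.116).

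GQ67_02964 (chromosome 1) followed the same pattern, with 74.9, 23.3 and 15.9 CPM in Y-7556 and 132, 18.4 and 23.5 CPM in YB-4290, against 389, 394 and 443 CPM in Y-12729 and 224, 281 and 276 CPM in Y-48123. The A libraries were several times above the B and C libraries of their strains and below all libraries of the other group. It fell by 2.71 on the log2 scale (SE 0.56, adjusted p = 0.000252), and the log2 fold change was -4.06 without both A libraries. GQ67_02712 (chromosome 1) had 12.4 to 51.7 CPM in Y-7556 and YB-4290 and 84.2 to 229.7 CPM in Y-12729 and Y-48123, a log2 fold change of -2.84.

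Several of the lower genes were abundant. GQ67_00519 (chromosome 2, 876138 to 877312, plus strand) had 2381, 1277 and 1679 CPM in Y-7556 and 2679.9, 559 and 1623 CPM in YB-4290, against 13813, 10290.4 and 10341 CPM in Y-12729 and 8178, 10838 and 10234 CPM in Y-48123. On the TPM scale it averaged 1608 in Y-7556 and YB-4290 and 9537 in Y-12729 and Y-48123, by far the highest level among the genes that met the naming rule. It fell by 2.58 on the log2 scale (SE 0.40, adjusted p = 7.00e-06). GQ67_00349 averaged 889.7 TPM in Y-7556 and YB-4290 and 3452 TPM in Y-12729 and Y-48123. GQ67_01339 averaged 368 TPM in Y-7556 and YB-4290 and 1382 TPM in Y-12729 and Y-48123, and GQ67_04070 averaged 412 TPM in Y-7556 and YB-4290 and 1158 TPM in Y-12729 and Y-48123. For these 3 genes the A libraries of Y-7556 and YB-4290 had higher CPM than the B and C libraries of their strains. That the groups did not overlap was a condition of their choice. GQ67_04085 (chromosome 3) and GQ67_04461 (chromosome 4) fell by 2.47 and 2.70 on the log2 scale.

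**Figure D2:**
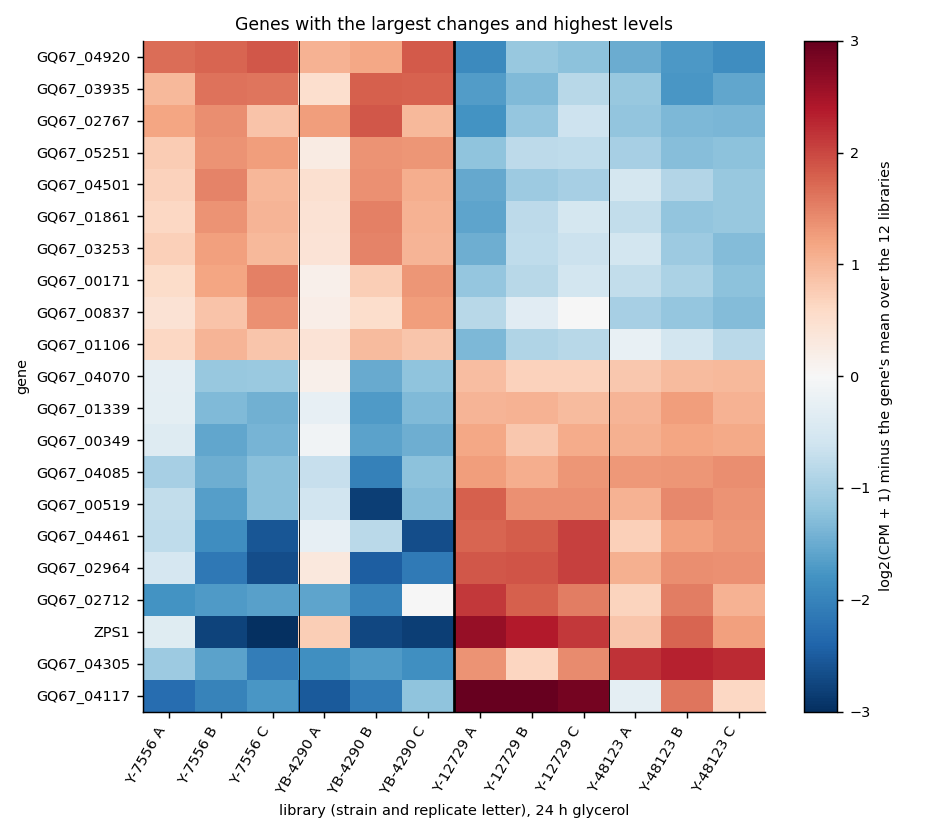
Levels of the 21 genes with the largest changes or highest levels among the genes called in all 4 strain pairs without overlap of libraries and with a mean of at least 20 CPM (rows), in each of the 12 libraries at 24 h glycerol (columns, Y-7556 and YB-4290 left of the thick line). Colour gives log2(CPM + 1) minus the gene's mean over the 12 libraries, from blue (lower) to red (higher); 10 genes were higher and 11 lower in Y-7556 and YB-4290, and columns Y-7556 A and YB-4290 A are the palest of their strains for many of the lower genes.

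The genes that carry the SNPs did not pass the fold minimum. RSF2 (GQ67_03630, chromosome 3, 1072725 to 1074911, minus strand) had 34.3, 42.7 and 45.8 CPM in Y-7556 and 31.2, 108 and 56.4 CPM in YB-4290, against 36.9, 31.6 and 36.2 CPM in Y-12729 and 30.9, 31.0 and 37.8 CPM in Y-48123. The B library of YB-4290 was well above all others, and the A libraries lay inside the range of Y-12729 and Y-48123. The log2 fold change was 0.56 (SE 0.18, adjusted p = 0.0128). The SNP position falls in codon 729 of the annotated gene, its stop codon. A separate gene model, GQ67_03629 (chromosome 3, 1072176 to 1072640, minus strand), begins 84 bases downstream of RSF2, lies in the same frame and has no annotated start codon; its own stop is 183 codons past that of RSF2. Whether its reads come from the RSF2 transcript was not tested.

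GQ67_03629 had 10.5, 18.7 and 18.4 CPM in Y-7556 and 11.4, 23.1 and 22.2 CPM in YB-4290, against 9.84, 9.85 and 10.3 CPM in Y-12729 and 8.48, 11.0 and 11.2 CPM in Y-48123. The B and C libraries of Y-7556 and YB-4290 were above the whole other group. The A library of Y-7556 was within that group's range, and the A library of YB-4290 was just above it. Its log2 fold change was 0.76 (SE 0.20, adjusted p = 0.00325). Over strain means at 24 h, GQ67_03629 was at 15.9 CPM in Y-7556, 18.9 in YB-4290, 15.8 in YB-378, 15.7 in YB-4289 and 12.1 in Y-17741, the strains to which the study assigned the long Rsf2 protein. It was at 10.01 CPM in Y-12729, 10.2 in Y-48123, 12.7 in Y-11430, 5.42 in GS115, 7.04 in Y-48124 and 15.2 in X-33. The ranges of the strains with and without the long protein therefore overlapped.

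SEF1 (GQ67_04030, chromosome 3), which carries the SNP of Y-48123, had 67.3 to 102.3 CPM in Y-7556 and YB-4290, against 58.9 to 74.2 CPM in Y-12729 and 55.5 to 65.0 CPM in Y-48123. Its log2 fold change was 0.42 (SE 0.13, adjusted p = 0.00788). SMC3 (GQ67_01021, chromosome 2), which carries the SNP of Y-12729 in codon 2, ranged from 55.2 to 323 CPM in Y-7556 and YB-4290 and from 82.4 to 160.2 CPM in Y-12729 and Y-48123, with a log2 fold change of 0.48 that missed the test (SE 0.24, adjusted p = 0.110). Between Y-48123 and Y-12729 neither SEF1 (-0.021) nor SMC3 (-0.34) passed the test.

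**Figure D3:**
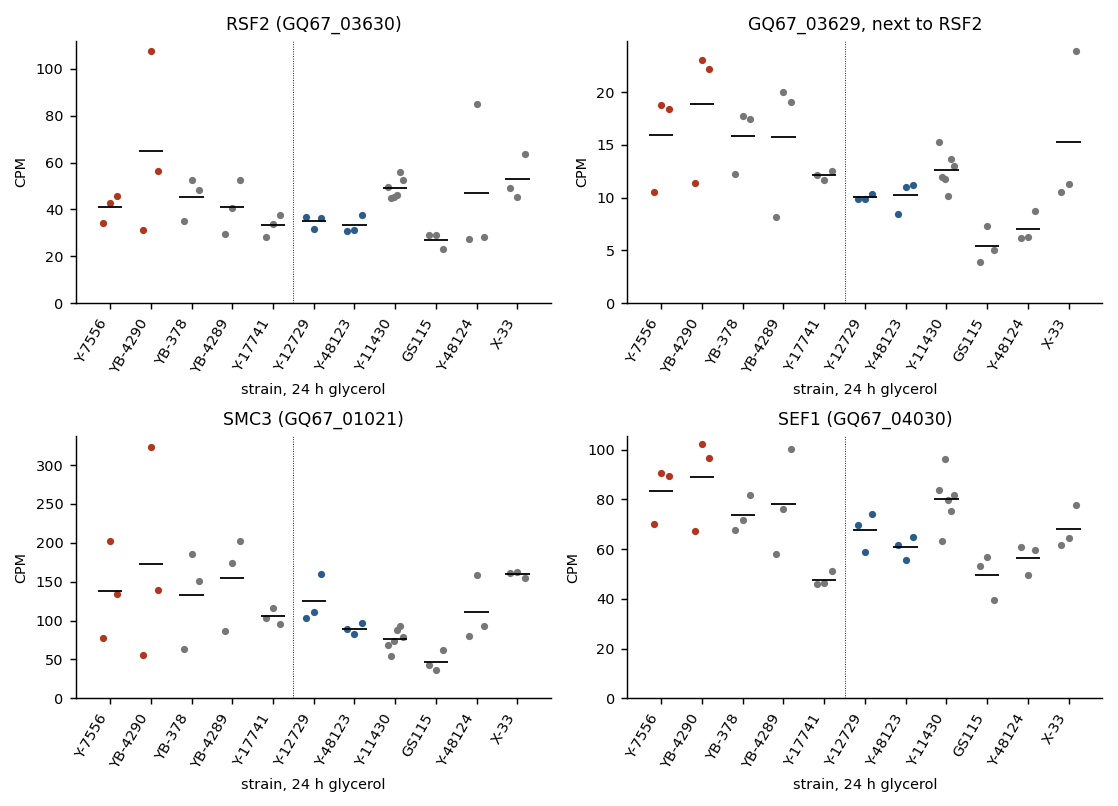
CPM of RSF2, the gene model next to it, SMC3 and SEF1 in every 24 h glycerol library of the 11 strains (horizontal axes; points are libraries, lines are strain means). Y-7556 and YB-4290 are red, Y-12729 and Y-48123 blue and other strains grey, and strains left of the dotted line have the long Rsf2 protein per the study; RSF2 reaches 108 CPM in one library of YB-4290.

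The study pairs a few more identifiers with names, and these were described whatever their values. CTR1 (GQ67_04497), named for the high affinity copper transporter, had 1757, 289 and 461 CPM in Y-7556 and 1418, 394 and 452 CPM in YB-4290, against 1692, 1214 and 1357 CPM in Y-12729 and 1641, 1617 and 1797 CPM in Y-48123. The A libraries of Y-7556 and YB-4290 were inside the range of the other group and the B and C libraries far below it. The log2 fold change was -0.89 and missed the test (SE 0.44, adjusted p = 0.101). Without both A libraries it was -2.01 and was called (adjusted p = 0.000302). Leaving them out was chosen after their values were seen and removes the libraries that oppose a fall. Such a call is therefore partly built in, here and for FRE1 and PDR12 below. FRE1 (GQ67_04112), named for the cell surface ferric and cupric reductase, had 3019, 563 and 819.7 CPM in Y-7556 and 2545, 729 and 852 CPM in YB-4290, against 1680.1 to 2533 CPM in Y-12729 and Y-48123. Its log2 fold change was -0.51 (SE 0.43, adjusted p = 0.351), and -1.57 without both A libraries (adjusted p = 0.00222). The A libraries held the highest FRE1 levels of all 12 libraries, and the B and C libraries the lowest.

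PDR12 (GQ67_05224), named for the plasma membrane pump for weak organic acids, ranged from 503 to 1378 CPM in Y-7556 and YB-4290 and from 902 to 2598 CPM in Y-12729 and Y-48123. Its log2 fold change was -0.81 (SE 0.35, adjusted p = 0.0589), and -1.299 without both A libraries (adjusted p = 0.00601). YFL040W (GQ67_02261, chromosome 1), named for a putative transporter of the sugar transporter family, had 14.8, 85.1 and 107 CPM in Y-7556 and 11.4, 65.1 and 109.9 CPM in YB-4290, against 20.1, 30.0 and 33.03 CPM in Y-12729 and 9.61, 10.8 and 7.72 CPM in Y-48123. It was called higher, by 2.00 on the log2 scale (SE 0.49, adjusted p = 0.00137), yet among the A libraries alone the value was -0.072, so that the rise rests on the B and C libraries. NIT1 (GQ67_00061), named for a nitrilase, had 6.29 to 10.5 CPM in Y-7556 and YB-4290 and 12.8 to 33.6 CPM in Y-12729 and Y-48123, without overlap, and fell by 1.19 (SE 0.25, adjusted p = 0.000254). FLO11-BSC1 (GQ67_01392), named for the flocculin of cell to cell adhesion, had a log2 fold change of 0.12, and GQ67_02041, a cell wall gene per the study, one of -0.22. Neither these nor YDL218W (GQ67_02654, 0.68) passed the test, and YDL218W was at 0.448 to 3.16 CPM in all 12 libraries.

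**Figure D4:**
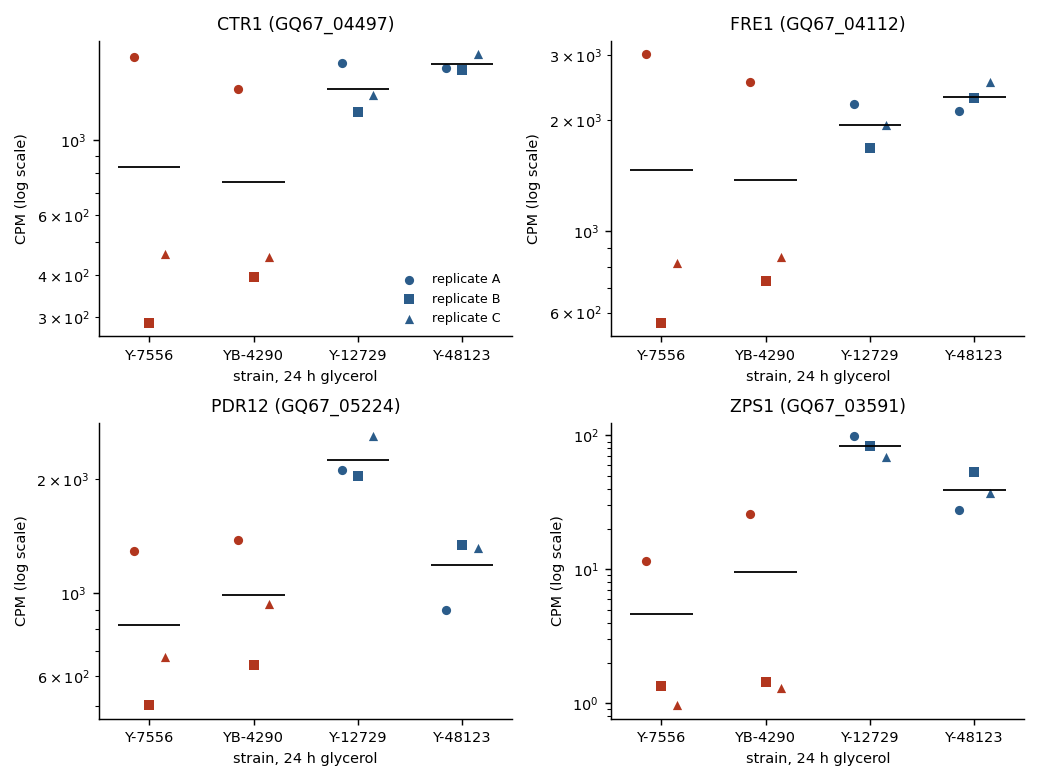
CPM on a log scale of CTR1, FRE1, PDR12 and ZPS1 in the 12 libraries at 24 h glycerol, by strain (red, Y-7556 and YB-4290; blue, Y-12729 and Y-48123; circles, squares and triangles are replicates A, B and C; lines are strain means). In Y-7556 and YB-4290 the A libraries lie above the B and C libraries in every panel, with CTR1 at 1757 and 1418 CPM in the A libraries.

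YB-4290 and Y-7556 gave no called gene, so only the other within-group comparison names genes. The 5 largest changes called between Y-48123 and Y-12729 were GQ67_01199 (-4.47), GQ67_02497 (-4.41), GQ67_03515 (-4.04), GQ67_03006 (-2.92) and GQ67_01949 (-2.81). GQ67_01199 (chromosome 2) had 1.70, 0.978 and 1.60 CPM in Y-48123, against 5.33, 59.5 and 44.4 CPM in Y-12729. In Y-7556 it had 8.12, 43.4 and 7.37 CPM and in YB-4290 31.7, 71.2 and 9.31 CPM. It thus varied several-fold within Y-12729, Y-7556 and YB-4290, and every library of Y-48123 was lower. GQ67_03006, a gene of the linear plasmids, had 2.64, 3.42 and 4.26 CPM in Y-48123, against 9.22, 41.6 and 35.6 CPM in Y-12729, and 3.14, 25.5 and 3.10 CPM in Y-7556 and 16.8, 51.6 and 4.65 CPM in YB-4290. For both genes, and for GQ67_02497, the high libraries were B and C in Y-12729, B in Y-7556, and A and B in YB-4290. GQ67_01949 (chromosome 1) differed in another way, with 4.71, 8.56 and 4.79 CPM in Y-48123, against 40.2, 49.7 and 49.9 CPM in Y-12729. Y-7556 and YB-4290 had 2.59 to 14.9 CPM of it, near Y-48123. The count of 28 calls fell to 9 when the A library of Y-48123 or the C library of Y-12729 was left out, to 11 without the B library of Y-12729 and to 16 without the B library of Y-48123.

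The linear plasmids are extrachromosomal elements that the study found partly or wholly missing from some strains. The annotation gives them 7 genes, of which 3 passed the filter on low counts and 0 were called in the main comparison. These genes together reached 22.7 to 162 CPM in Y-7556 and YB-4290 and 11.0 to 133 CPM in Y-12729 and Y-48123. Most of this came from GQ67_03003 and GQ67_03006, and all 4 strains had reads of both. In Y-48124, YB-378, X-33 and Y-17741 the same sum was at most 3.81 CPM in each library at 24 h.

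The position of the called genes was described next. On the 4 chromosomes, 3.93% to 4.45% of tested genes were higher and 3.99% to 5.02% lower, close to the shares over all genes. Of 65 tested genes within 25000 bases of the outermost annotated features of a chromosome, 3 were higher and 11 were lower (16.9%, beside 4.52% of all tested genes), with a median log2 fold change of -0.23 beside 0.016 over all genes. They included neighbouring genes near the left end of chromosome 1, GQ67_02262 (-1.46), GQ67_02264 (-1.24) and GQ67_02265 (-1.45), next to YFL040W, which was higher. At the right end of chromosome 2, GQ67_01352 fell by 3.21 on the log2 scale, and at the right end of chromosome 1, GQ67_01355 fell by 2.69. A lower gene had a lower neighbour for 33 of 227 genes (14.5%, beside 8.51% of all tested genes), and a higher gene a higher neighbour for 18 of 211 (8.53%, beside 8.03%). Of 237 tested genes with more than 1 exon, 6 were higher and 7 lower (2.53% and 2.95%, beside 4.20% and 4.52% of all tested genes).

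The same question was asked in strains outside the comparison. YB-378 and YB-4289, which have the long Rsf2 protein and share the cluster of Y-7556 and YB-4290 per the study, were set against Y-48124 and X-33, which descend from the laboratory strain GS115. YB-378 and YB-4289 differ from the reference assembly at many sites, and the part of read alignment in this comparison was not tested. Y-48124 and X-33 are listed as one strain under separate numbers, but the study found SNPs in X-33 that Y-48124 lacks, including a missense change in RVB1. Both carry the SNPs of GS115, with another substitution in HIS4, and a missense change in RCR2. The strains set against each other here thus differ in more than the Rsf2 protein, and these differences cannot be told apart. In these 12 other libraries 274 of 5018 genes (5.46%) were called, 116 higher (2.31%) and 158 lower (3.15%), where limma on log2(TPM + 1) gave 54 and 215. Of the 438 genes called above, 163 were called in the same direction (77 higher, 86 lower; 32 and 108 by limma on log2(TPM + 1)) and 0 in the opposite direction, a share of 37.2% of the first list and 59.5% of the second. The log2 fold change had the same sign for 207 of the 211 higher genes, with a median of 0.89, and 8 of the 227 lower genes were above 0, with a median of -0.89 over the 227. Across all 5018 genes, which are not independent replicates, Pearson's r between these log2 fold changes was 0.64.

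Of the 21 genes plotted by library, all 10 higher genes and 10 of the 11 lower genes were called in the same direction there. GQ67_04920 had a log2 fold change of 2.51, GQ67_03935 of 2.27 and GQ67_02767 of 1.44, while ZPS1 had one of -6.88 and GQ67_04117 one of -3.48. The exception was GQ67_04461, at 0.041. Outside both comparisons, Y-17741 has the long Rsf2 protein per the study and GS115 does not. Mean levels of GQ67_04920 were 106 CPM in Y-17741 and 2338 CPM in GS115. In Y-17741, GQ67_03935, GQ67_02767 and GQ67_04117 were at 16.4, 133 and 423 CPM, all nearer to Y-12729 than to Y-7556. ZPS1 was at 5.95 CPM in Y-17741 but also at 5.24 CPM in GS115. These genes thus did not split all strains by the Rsf2 protein. As in Y-7556 and YB-4290, the A libraries of YB-378 and YB-4289 stood apart, and were the nearest of their strain to Y-48124 and X-33 for 198 and 210 of the 274 called genes. Without the A libraries of these 4 strains, 456 genes were called in the outside comparison, and 292 genes were shared in direction. Without the A library of YB-378 alone the shared count was 220, and without the C library of YB-4289 it was 126.

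Over the strain means of the 7 remaining strains, 87 of the 438 called genes separated Y-17741, YB-378 and YB-4289 from Y-48124, X-33, GS115 and Y-11430 without overlap in the direction of the main comparison. These were 25 of the 211 higher genes and 62 of the 227 lower genes. Among all 5018 tested genes, 683 had such a separation. That count takes either direction, whereas a called gene had to match its call, so the shares are not alike. GQ67_04305 had the widest gap among the lower genes. Its mean was 4.28 CPM in YB-378, 8.14 in YB-4289 and 9.87 in Y-17741, against 124 CPM in Y-48124, 95.0 in X-33, 235 in GS115 and 576 in Y-11430. Thus its strain mean was under 10 CPM in all 5 strains with the long Rsf2 protein, and its level was above 40 CPM in every library of Y-12729 and Y-48123. It and the genes below were picked for such gaps, so the split is built in. Per the study, Y-17741, YB-378 and YB-4289 differ from Y-11430 at many sites, often at chromosome ends, and GQ67_04305 lies near one. The part of read alignment in these values was not tested. GQ67_01255 (chromosome 2) was at 0.265 to 1.18 CPM in Y-17741, YB-378 and YB-4289, against 7.99 to 14.3 CPM in the other 4 strains, and had 2.31 to 6.05 CPM in Y-7556 and YB-4290, against 9.54 to 15.9 CPM in Y-12729 and Y-48123. Among the higher genes, GQ67_00599 was at 15.3 to 22.5 CPM in Y-17741, YB-378 and YB-4289, against 1.92 to 4.97 CPM in the other 4, and GQ67_03760 was at 43.3 to 77.8 CPM in the first 3 strains, against 6.34 to 26.9 CPM in the other 4.

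The direction of the changes was then set beside that of time in glycerol. Lists of genes that rose or fell between 24 h and 48 h in glycerol were taken from Y-48124, X-33, YB-378 and YB-4289, none of which enters the main comparison. Of 5087 genes tested over all libraries, 847 (16.7%) rose and 871 (17.1%) fell with time. Among the 826 rising genes also tested at 24 h, 18 were higher and 138 were lower in Y-7556 and YB-4290, with a median log2 fold change of -0.34. Among the 866 falling genes, 103 were higher and 10 were lower, with a median of 0.25. Among the 3326 genes on neither list, 90 were higher and 79 lower, with a median of 0.011. Read from the other side, 138 of the 227 lower genes rise with time and 103 of the 211 higher genes fall with time.

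The mean log2(CPM + 1) of the rising genes minus that of the falling genes was taken as a level for each library. It was -1.497, -1.95 and -1.91 in Y-7556 and -1.35, -1.89 and -1.86 in YB-4290, against -0.89, -0.86 and -0.81 in Y-12729 and -1.35, -1.17 and -1.25 in Y-48123. The B and C libraries of Y-7556 and YB-4290 were below every library of the other group, while the A library of YB-4290 (-1.351) was level with the A library of Y-48123 (-1.349). In YB-378 and YB-4289 at 24 h the level was -1.35 and -1.33 in the A libraries and -1.84 to -1.97 in the others, against -1.43 to -0.74 in Y-48124 and X-33. At 48 h it was 0.63 to 2.36 in these 4 strains. Because the lists were called on these strains, their step from 24 h to 48 h is fixed by the choice of genes. With this level as a term in the model, 277 genes were called, 156 of them shared in direction with the 438. Since the level differs between the strains, the part of the strain difference that goes with culture state was not tested. With that term GQ67_04920, GQ67_02767 and GQ67_04305 kept their calls, while GQ67_02964, GQ67_02712, GQ67_00349 and GQ67_04070 lost theirs and YFL040W went to -0.21.

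**Figure D5:**
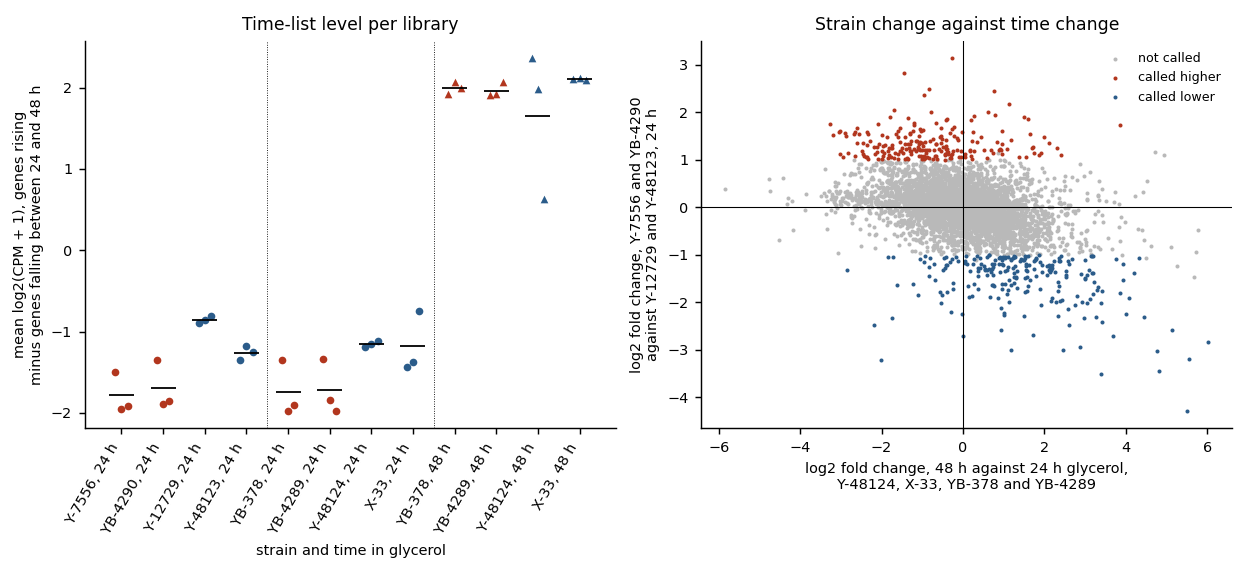
Left, mean log2(CPM + 1) of genes rising minus that of genes falling between 24 h and 48 h in glycerol, for libraries (points) of 8 strain groups at 24 h (circles) and 4 at 48 h (triangles), with strain means as lines; red marks YB-4289, YB-378, YB-4290 and Y-7556, blue the other strains, and the A libraries are the leftmost points. The lists were called on the 4 strains shown at both times, so their step to 48 h is built in. Right, log2 fold change of the main comparison against that of 48 h over 24 h for each gene (red, called higher; blue, called lower); 138 blue points belong to the rising list and 103 red points to the falling list.

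After 48 h in glycerol the same strains differed at 141 of 5087 genes (2.77%), 52 higher (1.02%) and 89 lower (1.75%) in Y-7556 and YB-4290. Y-48123 had 1 library there, which the model assumes to vary like the others. Of the genes called at 24 h, 40 were called in the same direction (7 higher, 33 lower), and the median log2 fold change was -0.13 for the 211 higher genes and -0.34 for the 227 lower genes. Tested directly, the difference changed between 24 h and 48 h for 348 of 5087 genes (6.84%), with 116 higher (2.28%) and 232 lower (4.56%) at 48 h. The genes called at 24 h were picked on 24 h libraries that also enter this test, so a smaller difference at 48 h is partly built in for them. The difference was lower at 48 h than at 24 h for 138 of the higher genes and was higher for 68 of the lower genes. GQ67_04920 went with the first set, at 0.73 after 48 h, as did GQ67_03935 at 0.078 and GQ67_02767 at 0.067. GQ67_04117 (-2.56) and GQ67_04305 (-3.25) remained lower. The count of 40 was 26 without the C library of Y-7556 at 48 h.

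In methanol, 1192 of 5087 genes (23.4%) differed between the same strains, 423 higher (8.32%) and 769 lower (15.1%) in Y-7556 and YB-4290. Here 91 of the 24 h calls were found in the same direction (21 higher, 70 lower) and 70 in the opposite direction. The difference changed between 24 h glycerol and methanol for 1388 genes (27.3%). Culture age, fresh medium and carbon source change together between these samplings and cannot be told apart. RSF2 itself was at -1.25 in methanol (adjusted p = 2.24e-07), and GQ67_03629 at -1.55. In mean CPM, RSF2 was at 41.7 in Y-7556 and 56.3 in YB-4290, against 106 in Y-12729 and 130 in Y-48123. Only 5 genes were called higher and 18 called lower in all 3 conditions. Among the named genes these were GQ67_05251, with log2 fold changes of 2.17, 1.50 and 2.00 at 24 h, at 48 h and in methanol, and the lower genes GQ67_04117, GQ67_04305 (-3.51, -3.25 and -2.99) and GQ67_04085.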

How the data were processed

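The study grew 11 strains in plates, extracted RNA after cell wall digestion and sequenced short reads. The authors aligned reads with STAR 2.5.3a and quantified genes with RSEM 1.3.0, and deposited expected counts per gene (whole numbers, not normalized) and log2(TPM + 1) values. Coordinates are those of the deposited annotation of the Y-11430 assembly, with 5167 features, 51 of them without values. Whether counting used strand is not given in the sources used here, so reads of overlapping or antisense features cannot be told apart (8 of the 21 genes with the largest changes or levels overlap another feature). A RefSeq table of 5040 genes matched 0 identifiers, so no pathway list was used.

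Counts were tested with edgeR 4.0.16 in R 4.3.3 (TMM normalization, filterByExpr, robust quasi-likelihood F test, two-sided, Benjamini-Hochberg adjustment). The main model held a mean per strain over all 36 libraries at 24 h glycerol (5018 of 5116 genes, common biological coefficient of variation 0.183). A second held a mean per strain and condition over the libraries of all 3 conditions (5087 genes, 0.238) and gave the 48 h, methanol, time and change-of-difference tests. SE is that of the log2 fold change. CPM uses the total of the listed genes and TPM was back-transformed from the deposited log2 values. The p-values measure spread between libraries within strains, and nothing in the labels says that these came from separate cultures. Replicate letters did not pair libraries across the groups compared (correlations of deviations from -0.19 to 0.18).

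Named genes were those that carry the SNPs, the 8 largest rises and falls and the 4 highest mean TPM in each direction among genes called in all 4 strain pairs without overlap of libraries and with a mean of at least 20 CPM, the genes the study names in a supplementary table with GQ67_02041, the 5 largest calls between Y-48123 and Y-12729, the linear plasmid genes, and the 4 genes (2 in each direction) that most separate the other strains. GQ67_03629 and the genes near chromosome ends were added after their values were seen, as were GQ67_03074, GQ67_04640 and those next to the fold minimum. These members and lists were chosen with earlier results of these data known. On simulated counts for 5006 genes of the main comparison, the model called 198 of 200 changed genes and 1 unchanged gene. These counts were drawn independently for each library, and the planted changes were larger than the median called change. The simulation therefore does not show how the model behaves with deviation shared within letters or with smaller changes. Alternatives were other size factors, filters, thresholds and covariates, DESeq2 1.42.0, limma 3.58.1 on log2(TPM + 1), and leaving out libraries.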

Additional observations from a re-analysis of the deposited data

Results flagged for a closer look

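The difference between Y-7556 with YB-4290 and Y-12729 with Y-48123 depended on the culture. Tested directly as a change of the difference by edgeR, it was different at 48 h and at 24 h in glycerol for 348 of 5087 genes (6.84%), 116 higher and 232 lower at 48 h. Between methanol and 24 h glycerol it was different for 1388 genes (27.3%), 510 higher and 878 lower in methanol. The methanol libraries were taken at 48 h, so culture age and carbon source cannot be told apart there. Among named genes, the largest change at 48 h was that of YFL040W (GQ67_02261), whose log2 fold change was -4.92 at 48 h and 2.00 at 24 h.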

How the results depend on the processing

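The 438 calls between Y-7556 with YB-4290 and Y-12729 with Y-48123 numbered 408 to 443 under other size factors, no filter, DESeq2, limma, the 12 libraries alone, strain sums (417), the share of unlisted TPM as a term and an adjusted p under 0.01. The strain sums count Y-7556 and YB-4290 as separate replicates, although they can be read as the same isolate. Replicate letters shared only a number across the groups: with them as a replicate block there were 442 calls, 432 of them shared. Of alternatives chosen after seeing the data, summing same-lettered libraries of Y-7556 and YB-4290 gave 438, leaving out both their A libraries 576, and the time-list level as a term 277, with 80 shared with the outside strains. The A, B and C libraries alone gave 263, 676 and 516 calls. Without the A libraries of YB-4289, YB-378, YB-4290 and Y-7556 the outside comparison gave 456 calls and 292 were shared.

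Without the fold minimum the counts were 2192 for the main comparison, 109 for Y-48123 against Y-12729, 717 for all 4 pairs, 1713 for the outside strains and 1072 shared with them, 201 and 816 shared with 48 h and methanol, and 2468 for the change between methanol and 24 h. At an adjusted p under 0.01, Y-48123 against Y-12729 gave 11 calls and 21 genes were shared with 48 h. By limma on TPM, Y-48123 against Y-12729 gave 71 calls, with a median over all genes of -0.31, and the median was -0.17 in the outside comparison and 0.091 in the main comparison; its splits by direction stand beside the counts by edgeR.

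Leaving out 1 library at a time gave 405 to 518 calls in the main comparison, 0 each time for YB-4290 against Y-7556, 9 to 22 for Y-48123 against Y-12729, 157 to 267 in all 4 pairs, 226 to 371 in the outside strains with 126 to 220 shared, 26 to 49 shared with 48 h, 82 to 108 shared with methanol, and 289 to 413 and 1257 to 1664 for the changes of the difference. The lone Y-48123 library at 48 h could not be left out. YFL040W (GQ67_02261) changed sign with the time-list level (-0.21) and in the A libraries (-0.072), and GQ67_01199 (-1.39) and GQ67_02497 (-1.85) in the C libraries. The cause was not tested. Single libraries at these depths and shared deviation within letters limit what the spread can show.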
